A study of Mus musculus with 6 samples.

Results

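The growth hormone axis of the liver was followed through 10 genes, in the liver of cGK1-KO mice that carry a smooth muscle rescue of the kinase and of wild type control mice. The genes are the growth hormone receptor gene Ghr, the kinase gene Jak2, the transcription factor genes Stat5a and Stat5b, the secreted products Igf1 and Igfals, the feedback inhibitors Socs2 and Cish, and the repressors Bcl6 and Cux2. They were chosen by name, with earlier results of these data known, as possible upstream genes of sex-patterned liver expression. Counts of these genes set beside all genes are therefore descriptive. All 10 of 10 were found among the 22180 genes of the arrays that could be tested. Total liver RNA of male C57BL/6N mice aged 2 months was hybridised to 1 array per sample, 3 knockout and 3 control samples. cGK1 is cGMP-dependent protein kinase 1, encoded by Prkg1; the sources used here do not name the promoter that drives the smooth muscle rescue. Values are log2 expression after RMA, a method that removes background signal, brings the arrays to the same distribution of values and combines the probes of each transcript. A difference of 1 on this scale is a doubling, and all differences are knockout minus control.

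Growth hormone from the pituitary binds its receptor on hepatocytes and activates the receptor-bound kinase JAK2, which phosphorylates STAT5A and STAT5B. The STAT5 proteins then enter the nucleus and drive Igf1 and Igfals, whose products circulate as the growth factor IGF1 and its stabilising partner, and Socs2 and Cish, whose products restrain the receptor. Male rodents secrete growth hormone in pulses and females more continuously, and this pattern sets which liver genes are male- or female-biased. Bcl6 is a male-biased and Cux2 a female-biased transcriptional repressor of that programme, and STAT5 activity represses Bcl6.

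STAT5 binds DNA at the palindrome TTCNNNGAA, so promoter sequences of the axis genes are shown to place that motif beside the expression values. RefSeq promoter windows of 300 bases, 250 before and 50 after each listed start, were searched for 9 of the 10 genes, all but Socs2 (16 windows, mouse build GRCm38.p6). The motif reads the same on both strands and was found in windows of 3 genes, Bcl6, Cish and Igfals, while 9.55% of the 27025 genes in the table held it. A gene with several windows has more room for a match. By window, the motif was in 5 of the 16, against 8.3% of all 32851 windows. It is marked in capitals in the sequences, each written in the direction of transcription. The first is the part before the second listed start of Bcl6 (minus strand, chr16:23981284-23981533), which held 3 copies.
Bcl6 second start: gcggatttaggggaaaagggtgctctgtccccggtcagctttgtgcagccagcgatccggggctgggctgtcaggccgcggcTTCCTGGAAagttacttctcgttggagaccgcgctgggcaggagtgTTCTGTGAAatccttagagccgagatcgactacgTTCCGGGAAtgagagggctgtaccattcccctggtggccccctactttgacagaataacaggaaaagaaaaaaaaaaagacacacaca
A window with 3 or more copies was found in 0.0335% of the 32851 windows. The part before the first listed start of Bcl6 (minus strand, chr16:23988853-23989102) held 1 copy.
Bcl6 first start: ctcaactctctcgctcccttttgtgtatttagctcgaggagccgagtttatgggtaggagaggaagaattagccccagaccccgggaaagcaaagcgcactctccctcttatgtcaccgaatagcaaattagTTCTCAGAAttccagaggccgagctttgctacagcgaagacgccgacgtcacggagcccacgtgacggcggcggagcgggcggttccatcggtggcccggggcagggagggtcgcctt
In Cish, 2 copies separated by 2 bases lay at the listed start itself (plus strand, chr9:107296654-107296683), and are shown in a stretch of 30 bases.
Cish: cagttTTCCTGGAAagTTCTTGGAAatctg
In Igfals 1 copy lay before the first listed start (plus strand, chr17:24877594-24877843).
Igfals first start: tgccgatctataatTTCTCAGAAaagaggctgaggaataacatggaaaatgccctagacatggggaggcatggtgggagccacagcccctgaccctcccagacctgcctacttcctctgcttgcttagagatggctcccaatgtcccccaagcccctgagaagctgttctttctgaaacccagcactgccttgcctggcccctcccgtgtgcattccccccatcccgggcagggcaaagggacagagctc
Another copy lay before the second listed start of Igfals (chr17:24878163-24878192).
Igfals second start: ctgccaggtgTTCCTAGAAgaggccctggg
The form with a spacer of 4 bases in place of 3 between TTC and GAA, also its own reverse complement, was in 0 of the 16 windows, against 6.95% of all windows. A match describes the letters of these windows and not a bound site.

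No gene of the axis passed an adjusted p of 0.05 in limma (0 of 10), and neither did any other gene (0% of 22180, smallest adjusted p 0.0613). At an unadjusted p under 0.05 in limma, Stat5b was higher (1 of 10, where 5.06% of all genes were), and Igf1 and Bcl6 were lower (2 of 10, where 5.46% were). In both directions together 10.5% of all genes were at that p. Without control replicate 2, and likewise without control replicate 3, 0 of the 10 genes were at that p, and with array median centring or the replicate block Stat5b was not. Without knockout replicate 2, Stat5b and Igf1 were not at that p, while Cux2 was, as higher. Bcl6 was not at that p without knockout replicate 1, nor without knockout replicate 3. Igfals, as lower, was at that p without knockout replicate 3, with array weights and with the replicate block. Knockout and control values did not overlap for Stat5b and Cux2, which lay higher, and for Igf1, which lay lower; this is 3 of 10 genes, where 16.7% of all genes did not overlap (7.61% with the knockout higher and 9.14% with it lower). Without knockout replicate 2, and likewise without knockout replicate 3, the groups of 5 genes did not overlap, where 30.1% and 29.2% of all genes did not with those arrays. The median difference of the 10 genes was -0.05, against 0.00 over all genes. Nothing in the labels states that each replicate came from its own animal, so every p-value reflects the spread of these samples alone, which may be technical.

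Arrays did not behave alike within the groups. Correlations across genes, which are not independent replicates, were 0.989 to 0.990 among controls and 0.978 to 0.983 among knockouts. On the first principal component (33.3% of the variance) the controls lay at 17.1 to 21.5 and knockout replicates 1 to 3 at -29.9, -23.9 and -2.50. On the second (23.3%) knockout replicate 3 lay apart at 36.0, and all other arrays between -18.6 and 0.22. Results are therefore given with and without single arrays where these decide them. Prkg1 was 3.31, 3.04 and 3.22 in knockout replicates 1 to 3 and 3.32, 2.97 and 2.95 in the controls, around the median of the table (3.14), so it does not check the genotype. The liver identity of the samples was clear from 8 measured hepatocyte genes, with a median control level of 12.2 and a median difference of 0.01.

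**Figure D1:**
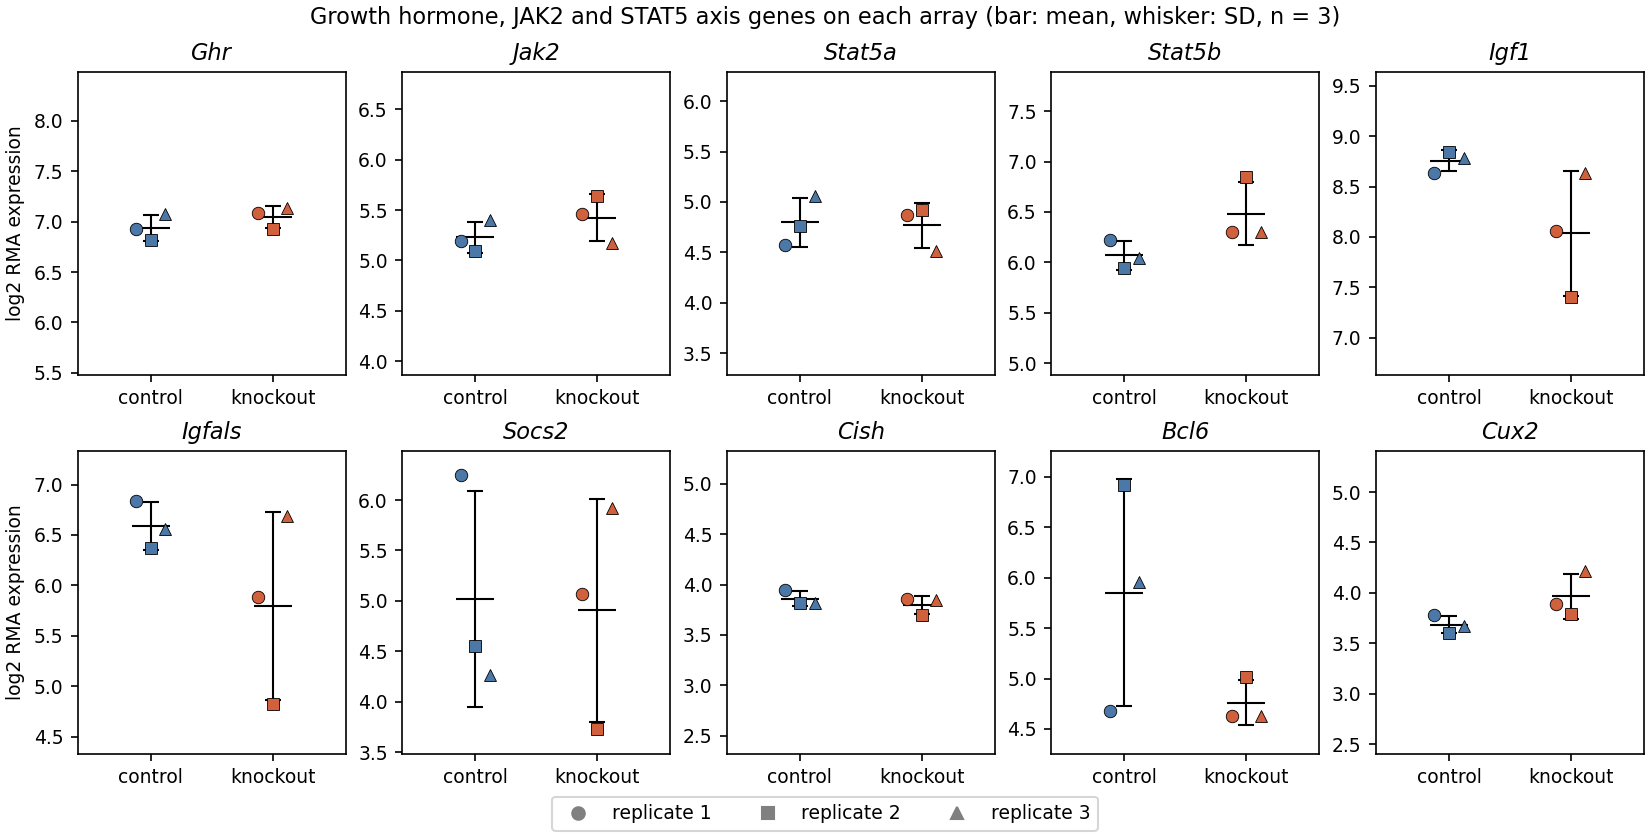
Log2 RMA expression of the 10 genes on each array, with controls in blue and knockouts in orange; the symbol shape gives the replicate number, the bar the mean and the whisker the SD of 3 arrays. Every panel spans at least 3 log2 units. Socs2 spread widely in both groups, Bcl6 among the controls, and Igf1 and Igfals among the knockouts.

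The receptor and its kinase were close in level in both groups. Ghr was 7.09, 6.93 and 7.13 in knockout replicates 1 to 3 and 6.92, 6.81 and 7.07 in control replicates 1 to 3. The groups overlapped, and the difference was 0.11 (SE 0.13), with a 95% interval that spans a 0.876- to 1.33-fold ratio (limma adjusted p = 0.803). Jak2 was 5.46, 5.64 and 5.18 in the knockouts and 5.19, 5.10 and 5.40 in the controls. Knockout replicates 1 and 2 lay above all controls and replicate 3 lay within them, and the difference was 0.20 (SE 0.16, interval 0.893- to 1.47-fold, adjusted p = 0.701). A change of either transcript inside these intervals could not be told from none at this number of arrays.

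The paired transcription factor genes, neighbours on chromosome 11, differed in their values. Stat5b, the more important of the pair for male-patterned liver expression, was 6.30, 6.84 and 6.31 in the knockouts and 6.23, 5.94 and 6.04 in the controls. All 3 knockout values lay above all controls, with a gap of 0.077 between the nearest arrays, and knockout replicate 2 was the highest. The difference was 0.41 (SE 0.18), a 1.33-fold ratio with an interval of 1.01 to 1.75 (limma adjusted p = 0.454). Without knockout replicate 2 it was 0.23. The exact 2-sided permutation test gave p = 0.1, the smallest that 3 against 3 arrays allow.

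Stat5a was 4.87, 4.92 and 4.52 in the knockouts and 4.58, 4.76 and 5.06 in the controls. The groups overlapped in part, with knockout replicate 3 below all controls and control replicate 3 above all knockouts. The difference was -0.03 (SE 0.17, interval 0.749- to 1.28-fold, adjusted p = 0.965), and its sign turned when knockout replicate 3 or control replicate 3 was left out (0.10 each). Whether the differences of Stat5a and Stat5b themselves differ was not tested. Transcript levels say nothing of STAT5 phosphorylation, which these arrays do not measure.

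The products that STAT5 drives for secretion were lower in part of the knockout arrays. Igf1, encoding the insulin-like growth factor that mediates growth, was 8.06, 7.41 and 8.64 in knockout replicates 1 to 3 and 8.64, 8.84 and 8.78 in the controls. Knockout replicates 1 and 2 were clearly below the controls, whereas replicate 3 lay only 0.00063 under control replicate 1, so that array does not stand apart from the controls. The mean was 8.03 ± 0.62 against 8.76 ± 0.11 (SD, n = 3). The difference was -0.72 (SE 0.27), a 1.65-fold lower mean (limma adjusted p = 0.398, exact permutation p = 0.1). It was -1.02 without knockout replicate 3 (adjusted p = 0.102) and -0.41 without knockout replicate 2 (adjusted p = 0.436).

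Igfals encodes the acid-labile subunit, which holds IGF1 with its binding protein in the circulation. It was 5.88, 4.82 and 6.68 in the knockouts and 6.84, 6.37 and 6.56 in the controls. Knockout replicates 1 and 2 lay below all controls and replicate 3 lay within them, so the groups overlapped. The difference was -0.79 (SE 0.39), a 1.73-fold lower mean with an interval from 0.316- to 1.05-fold (limma adjusted p = 0.509, exact permutation p = 0.3). Without knockout replicate 3 it was -1.24 (adjusted p = 0.164) and without knockout replicate 2 it was -0.31. Knockout replicate 2 held the lowest value of the 6 arrays for both Igf1 and Igfals, and knockout replicate 1 the next lowest.

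**Figure D2:**
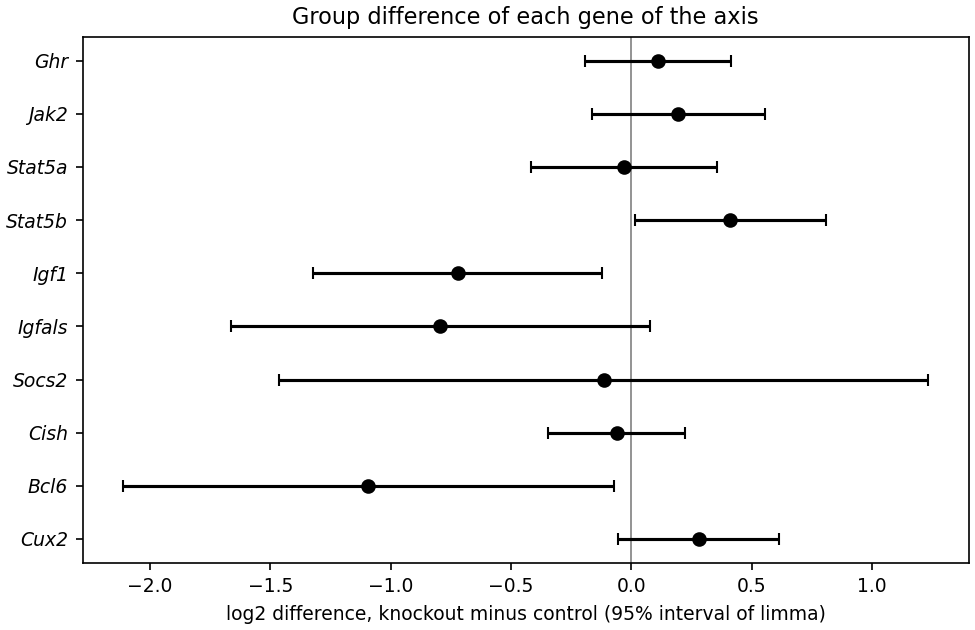
Log2 difference of each of the 10 genes, knockout minus control, as points with the 95% interval of limma as whiskers, from 3 arrays per group. The intervals of Stat5b, Igf1 and Bcl6 lie to one side of 0 before adjustment, and that of Socs2 is the widest.

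For the feedback inhibitors the arrays gave no clear direction. Socs2, which encodes a STAT5-induced suppressor of growth hormone signalling, was 5.07, 3.72 and 5.92 in the knockouts and 6.24, 4.55 and 4.27 in the controls. Both groups spread over a wide range, 2.20 among knockouts and 1.98 among controls, and control replicate 1 was the highest array. Among the knockouts, replicate 2 was lowest and replicate 3 highest, as for Igf1. The difference was -0.11 (SE 0.60) with an interval from 0.362- to 2.35-fold (limma adjusted p = 0.962), so a large change either way would not have been detectable. It was 0.50 without control replicate 1 and 0.48 without knockout replicate 2, against -0.62 without knockout replicate 3. A second, dimmer probe set of Socs2 gave -0.04.

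Cish, another STAT5-induced inhibitor, gave different answers by probe set. The brighter probe set was 3.85, 3.70 and 3.85 in the knockouts and 3.95, 3.82 and 3.81 in the controls, a difference of -0.06 (SE 0.13, interval 0.788- to 1.17-fold, limma adjusted p = 0.895). The dimmer one was 3.70, 3.55 and 3.61 in the knockouts and 3.20, 3.46 and 3.08 in the controls, and all 3 knockout values lay above all controls. Its difference was 0.37 (SE 0.14, limma adjusted p = 0.419), and it was tested only after its values were seen. No direction can be given for Cish from probe sets that disagree, and both lay near the median of the table.

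The male-biased repressor Bcl6 had the largest difference in size of the 10 genes, and it rested on a pair of the control arrays. Bcl6 was 4.63, 5.02 and 4.63 in knockout replicates 1 to 3 and 4.68, 6.92 and 5.95 in control replicates 1 to 3. The 3 knockout arrays lay close together at the low end (SD 0.22), whereas the controls were spread (SD 1.12), with replicate 1 at the knockout level and replicates 2 and 3 above. The difference was -1.09 (SE 0.45), a 2.13-fold lower mean with an interval from 0.231- to 0.951-fold (limma adjusted p = 0.439, exact permutation p = 0.2). Without control replicate 1 it was -1.68 (adjusted p = 0.359), and without control replicate 2 it was -0.56 (adjusted p = 0.777). Control replicate 1, the control lowest in Bcl6, was the control highest in Socs2.

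Cux2, the female-biased repressor, was 3.89, 3.79 and 4.21 in the knockouts and 3.78, 3.60 and 3.67 in the controls. All 3 knockout values were above all controls, but the nearest arrays were only 0.014 apart and the level was low, little above the median of the table. The difference was 0.28 (SE 0.15), a 1.21-fold ratio with an interval from 0.963- to 1.53-fold (limma adjusted p = 0.538, exact permutation p = 0.1), and it was 0.16 without knockout replicate 3, the highest array. Bcl6 thus lay lower and Cux2 higher on average, each short of the threshold.

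**Figure D3:**
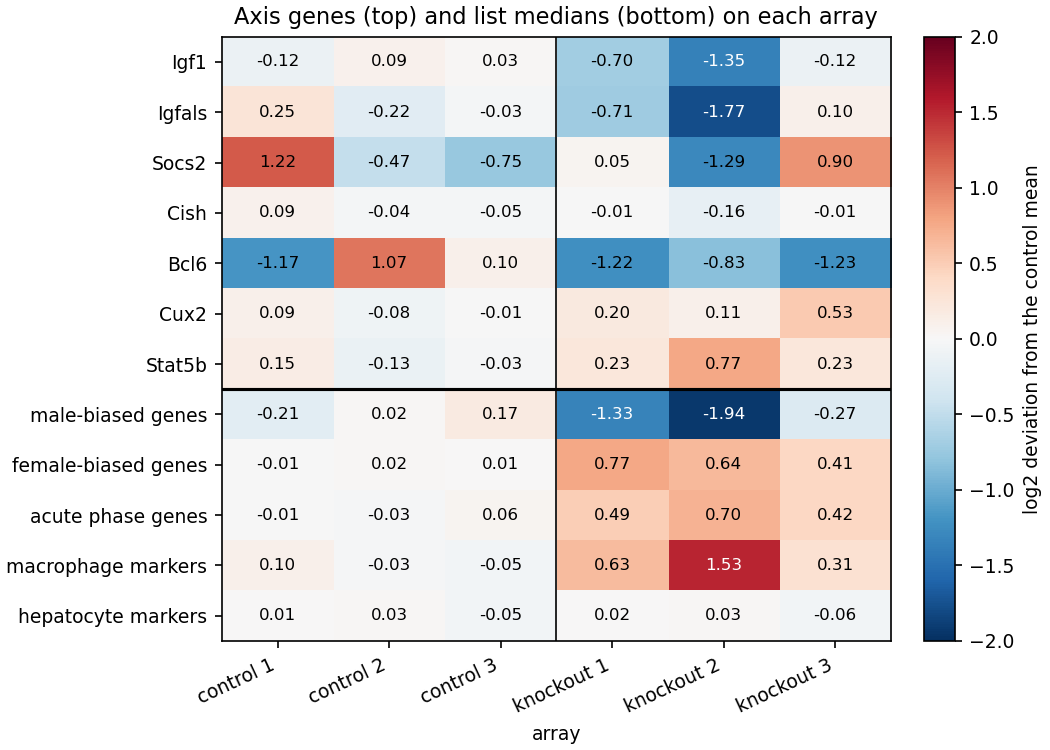
Log2 deviation from the control mean on each of the 6 arrays, for 7 genes of the axis (above the line) and for the medians of 5 gene lists (below it); red is higher and blue lower. Igf1 and Igfals are lowest on knockout replicate 2 (-1.35 and -1.77), where the male-biased genes are lowest (-1.94) and the macrophage markers highest (1.53).

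The sex-patterned genes that the axis is known to control were compared on the same arrays. Their lists too were written with earlier results of these data known. Of 23 measured male-biased genes, 22 had negative differences, with a median of -1.09. That median was -0.66 without knockout replicate 2 and -1.64 without knockout replicate 3. At an unadjusted p under 0.05, 16 were lower and 0 higher, where 5.46% and 5.06% of all genes were. The median deviation from the control mean was -1.33, -1.94 and -0.27 in knockout replicates 1 to 3. Igf1 (-0.70, -1.35 and -0.12) and Igfals (-0.71, -1.77 and 0.10) had their lowest value on the same array and their highest knockout value on the same array as this list. Bcl6 (-1.22, -0.83 and -1.23) and Cux2 (0.20, 0.11 and 0.53) did not, with knockout replicate 3 at least as far from the control mean as the other 2. Of 29 female-biased genes, 24 had positive differences with a median of 0.49 (0.32 without knockout replicate 1), and 13 were at that p as higher and 1 as lower. In this list 9 genes had a mean under the median of the table. The summed level of the list was 12.92, 12.84 and 12.07 in the knockouts and 12.52, 12.97 and 12.69 in the controls. The groups thus overlapped in that sum, and knockout replicate 3 was the lowest array. Over all genes, 49.8% of differences were negative and 50.2% positive.

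Other genes of the pathway, also taken from lists written with earlier results of these data known, had 0 members past the adjusted threshold. Among 30 measured genes of receptor signalling and its brakes, 4 were higher at an unadjusted p under 0.05 and 1 lower. Over all genes, 5.06% were higher and 5.46% lower at that p. The median difference of the list was 0.04 (0.12 without knockout replicate 1). The higher genes were Socs3, an inhibitor induced by IL-6 and growth hormone (0.50, SE 0.14, limma adjusted p = 0.306), Stat3, the STAT of the IL-6 response (0.44), the phosphatase-recruiting receptor gene Sirpa (0.68) and the adaptor gene Sh2b3 (0.36). The lower gene was Irs1, the insulin and IGF1 receptor substrate (-0.48). Ptpn11, encoding the phosphatase SHP2 that acts at the receptor, was at -0.32 and did not reach that p.

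The 16 measured genes of the IGF system had a median difference of -0.07. This median was -0.04 without knockout replicate 2, -0.03 without control replicate 2 and -0.11 without control replicate 3. At an unadjusted p under 0.05, 3 were higher and 0 lower, where 5.06% and 5.46% of all genes were. The 3 higher genes were the RNA-binding protein gene Igf2bp3 (0.94), Igfbp7 (0.62) and Igfbp3, encoding the binding protein that carries IGF1 together with the acid-labile subunit (0.40, SE 0.14, adjusted p = 0.367). Igfbp3 was 6.16, 6.41 and 6.07 in the knockouts and 5.81, 5.78 and 5.86 in the controls, with no overlap. Igfbp7 was 8.68, 9.49 and 8.79 in the knockouts and 8.46, 8.33 and 8.31 in the controls. Both were highest on knockout replicate 2, as were the summed sinusoidal endothelial markers, at 9.85, 10.51 and 9.86 in the knockouts and 9.71 to 9.73 in the controls. Of 10 such markers 9 had positive differences with a median of 0.27, which was 0.02 without knockout replicate 2, and their part in the IGF binding protein values was not tested. The partners of the circulating complex thus lay in different directions, Igfbp3 higher and Igfals and Igf1 lower on average, none past the adjusted threshold.

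At an unadjusted p under 0.05, 5.06% of all genes were higher and 5.46% lower. Of 13 other growth hormone induced genes, 2 were lower at that p, the urinary protein genes Mup20 (-1.53) and Mup3 (-0.44), and 1 higher, the ketohexokinase gene Khk (0.38). In this list 10 differences were negative and 3 positive, with a median of -0.14. Its summed level was 13.08 to 13.80 in the knockouts and 13.90 to 13.99 in the controls. Many Mup genes are near-identical, and whether the probes of Mup20 and Mup3 tell them from other members was not tested. Of 16 transcription factors that act with STAT5, Tox, itself female-biased, was higher (0.58, SE 0.16, adjusted p = 0.299) and Hnf4a, a central hepatocyte factor, lower (-0.36, SE 0.13, adjusted p = 0.399) at that p, and the list median was -0.15 (-0.03 without knockout replicate 1, -0.10 without knockout replicate 2 and -0.08 without control replicate 3). Of 16 fasting-responsive genes, 7 were at that p as lower and 1 as higher, with a median of -0.33 (-0.21 without knockout replicate 3). Fgf21, a fasting hormone gene that can dampen growth hormone signalling, was at -0.64 (adjusted p = 0.407).

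Inflammatory genes and macrophage markers also lay higher in the knockouts, with 0 past the adjusted threshold. Of 28 acute phase genes 25 had positive differences with a median of 0.51. At an unadjusted p under 0.05, 21 were higher and 1 lower, where 5.06% and 5.46% of all genes were. The median deviation of the list was 0.49, 0.70 and 0.42 in knockout replicates 1 to 3. All 16 macrophage and Kupffer cell markers had positive differences with a median of 0.82 (0.47 without knockout replicate 2), and their summed level was 10.20 to 11.33 in the knockouts and 9.79 to 9.996 in the controls. Macrophages also express Igf1, Socs3, Stat3 and Sirpa. Of 12 neutrophil markers 10 had positive differences with a median of 0.25, their summed level was 6.63 to 6.76 in the knockouts and 6.26 to 6.38 in the controls, and 8 had a mean under the median of the table. Of 13 lymphocyte markers 8 had a mean under the median of the table, and 9 differences were positive with a median of 0.09. The summed hepatocyte markers were 15.3 in both groups. The part of these cells and of inflammation in the differences of the axis was not tested, and in whole liver RNA fewer cells of a type and less RNA per cell cannot be told apart.

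**Figure D4:**
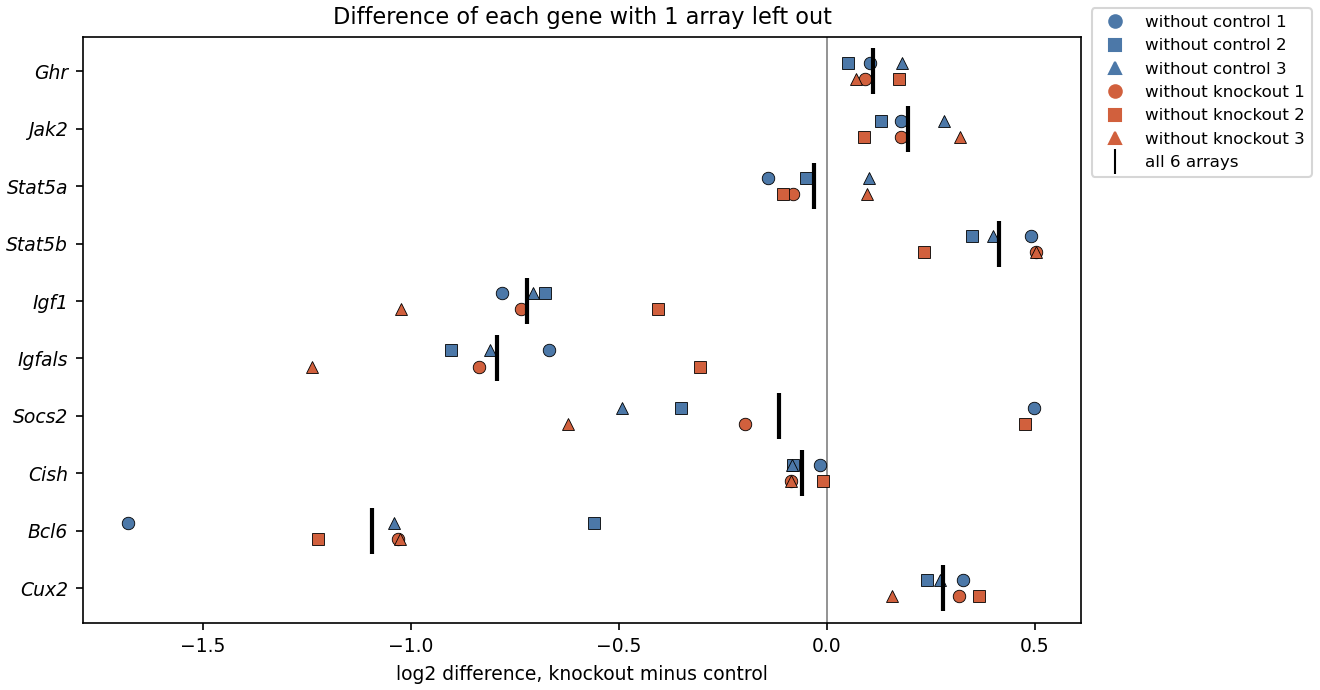
Log2 difference of each gene with all 6 arrays (black bar) and with 1 array left out (symbols; blue without a control, orange without a knockout). The differences of Igf1 and Igfals move with knockout replicates 2 and 3, that of Bcl6 with control replicates 1 and 2, and those of Socs2 and Stat5a change sign.

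Genes with the most similar pattern over the 6 arrays were found for the 3 axis genes with the largest SD over all arrays, as the root mean square distance in log2 units after each gene's mean was subtracted, among 11928 genes. For Igfals (SD 0.75) the nearest were Keg1 (distance 0.237), a male-biased gene, Pdilt (0.238) and Zmym1 (0.251). Keg1 was 6.14, 5.02 and 7.06 in the knockouts and 6.61, 6.45 and 7.08 in the controls. For Bcl6 (SD 0.94) the nearest were Phf11c (0.338), Setdb2 (0.420) and the heat shock protein gene Hsph1 (0.445). Each had its highest value on control replicate 2, as Bcl6 did, which the choice by likeness to Bcl6 favours. For Socs2 (SD 0.98) the nearest were an immunoglobulin kappa variable gene (0.510), Akr1c20 (0.540) and C1ql1 (0.563), at larger distances.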

How the data were processed

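Total liver RNA of 3 knockout and 3 control samples was labelled from 100 ng and measured on Affymetrix whole-transcript arrays, 1 per sample, per the labels' protocols. Per the submitters' processing notes, values came from RMA in Affymetrix Expression Console 1.4.1. The deposited table holds log2 expression values made by the authors for 41345 probe sets, with array medians of 3.11 to 3.16; RMA equalises the distributions of the arrays, so a shift shared by most transcripts is lost. The number of arrays limits the precision.

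Probe sets were named from the platform annotation (23521 with 1 symbol, 1814 with several, 16010 not listed), and the gene numbers of the 10 axis genes matched RefSeq GRCm38.p6. The brightest probe set of each symbol was tested in R 4.3.3 with limma 3.58.1 (lmFit, eBayes; statmod 1.5.0), 2-sided, with Benjamini-Hochberg adjustment over 22180 genes; the test was checked on simulated data. The axis genes and the 17 lists were chosen with earlier results of these data known. All axis genes are named, in each list genes among the 6 largest moderated statistics, and the 3 genes nearest in pattern. Alternatives were a dim filter, other normalization, centring, variance priors, array weights, probe set rules, a replicate block and leaving out each array; the dimmest probe set was added after seeing the data.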

Additional observations from a re-analysis of the deposited data

How the results depend on the processing

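Across the 10 axis genes and 15 alternatives, 143 of 150 differences kept their sign and stayed short of an adjusted p of 0.05 in limma, and 7 turned sign. Under none of the 15 alternatives did an axis gene pass (0 of 10). Stat5a turned to 0.00068 after quantile normalization again and ranged from -0.14 to 0.10 with 1 array left out. Socs2 ranged from -0.62 to 0.50 with 1 array left out. Cish turned to 0.15 with the mean of its probe sets and to 0.37 with the dimmest probe set. The cause of these turns was not tested. With 1 array left out, the difference ranged from -1.02 to -0.41 for Igf1, from -1.24 to -0.31 for Igfals, from -1.68 to -0.56 for Bcl6 and from 0.23 to 0.50 for Stat5b. Over all genes, 8 passed with the filter on dim probe sets, 25 with a variance prior that follows intensity and 1 with the replicate block, and 0 to 66 with 1 array left out (66 without knockout replicate 3, 3 without control replicate 3). Deviations of arrays with the same replicate number correlated at 0.0064, 0.053 and 0.015, and not every knockout array correlated best with its own number. With 3 arrays per group, these correlations cannot decide whether the numbers pair the samples. The labels state no pairing, so the replicate block was kept as an alternative only. With the replicate block 3 axis genes were lower and 0 higher at an unadjusted p under 0.05, the added gene being Igfals. When only the 250 bases before the start were searched, the motif was in 2 of the 9 genes, Bcl6 and Igfals. Over all genes it was in 8.13% of 27025. By window it was in 4 of 16, against 7.02% of all windows. The copies of Cish lie at the listed start and so fell outside this search.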
